A study of Mus musculus with 6 samples.

Results

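The cytosolic heat shock chaperones considered here are 10 genes of the HSF1 pathway: the transcription factor gene Hsf1, the HSP70 genes Hspa1a, Hspa1b and Hspa8, their co-chaperones Dnajb1, Hsph1 and Bag3, the HSP90 gene Hsp90aa1, and the small heat shock protein genes Hspb1 and Hspb8. Members were taken as the array probes whose transcript accession belongs to one of these genes, which gave 12 probes for 9 genes, out of 55681 probes on the array. No probe carried an accession of Hspa1b, so its expression was not analysed here. Each of the other genes had 1 probe, except Hspa8 with 3 and Hsph1 with 2.

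The arrays compared freshly sorted mammary cells of C57Bl6J female mice at 2 ages. The fetal cells came from embryonic day 18.5 glands and carried the phenotype CD31-CD45-Ter119-EpCAM++CD49f+. The adult basal cells came from mice of 8 to 12 weeks and carried the phenotype CD31-CD45-Ter119-BP-1-EpCAM+CD49f+. Each population was measured in 3 biological replicates, 1 one-colour Agilent mouse expression array each, and nothing in either population was treated or genetically altered. The adult glands were dissociated overnight and the fetal glands for a much shorter time, and the sort gates also differed. Age, dissociation and gate therefore cannot be told apart in any difference below.

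Heat shock chaperones hold unfolded proteins in solution and help them to fold. Many of their genes are switched on together by HSF1 when cells meet heat or damaged protein, whereas relatives such as Hspa8 are made at high levels in unstressed cells. Enzymatic dissociation of a tissue is itself known to switch on heat shock and immediate early genes. In basal mammary cells, which are contractile, small heat shock proteins and BAG3 are also known for the upkeep of actin-bound proteins.

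HSF1 binds repeats of GAA and its reverse, TTC. Sequences of the 250 bases before the start site were available for 7 of the 10 genes (RefSeq, GRCm38.p6). They were searched for 2 facing units, GAANNTTC or TTCNNGAA, each of which reads the same on both strands. Of all 32851 promoter windows of that length, 12.8% held such a pair. It was found before 4 of the 7 genes, and these 4 stretches are shown because they hold the letters HSF1 is known to bind. The capitals mark the match, with 20 bases on either side, written 5′ to 3′ on the strand of the gene.
Hspa1a, chr17:34972233-34972280, minus strand: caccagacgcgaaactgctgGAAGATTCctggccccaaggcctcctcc
Hspa1b, chr17:34959315-34959362, minus strand: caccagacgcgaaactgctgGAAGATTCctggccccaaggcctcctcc
Hsph1, chr5:149636342-149636389, minus strand: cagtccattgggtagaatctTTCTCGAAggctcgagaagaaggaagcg
Hspb1, chr5:135887782-135887849, plus strand: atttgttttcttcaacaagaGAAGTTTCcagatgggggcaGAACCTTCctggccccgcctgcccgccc

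The match began 104 bases before the start site in both Hspa1a and Hspa1b, whose windows had the same base at 247 of 250 positions. Hspb1 was the only one of the 7 with 2 matches, the farther of which began 117 bases before the start. Forms with 3 units, GAANNTTCNNGAA or TTCNNGAANNTTC, stood in 0.466% of all promoter windows and in none of these 7 genes. No pair was found before Dnajb1, Hspb8 or Bag3, which says only that these letters are not in the windows searched.

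On each of the 6 arrays the 12 probes were well above background, and they passed the low-signal filter, so every one was tested among 20448 probes. None of the 9 measured genes was called different between fetal and adult basal cells under the criteria of the study, which ask for a change of at least 2-fold and, in limma, a p of at most 0.05 after Holm adjustment. By comparison, 5.92% of tested probes were called with the higher signal in fetal cells and 5.18% with the higher signal in adult basal cells. With Benjamini-Hochberg adjustment and the same fold limit the count was again 0 of 9, against 30.0% of tested probes in either direction. At an unadjusted p under 0.05 it was 6 of 9, and 64.7% of all tested probes. The 0 of 9 with Benjamini-Hochberg adjustment was that of the main fit. Hspa1a passed both limits in some alternative fits, such as without fetal replicate 1 (log2 difference 1.34, limma, Benjamini-Hochberg-adjusted p = 0.0062). The Holm-adjusted p was 1.000 for each of the 12 probes.

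All 9 differences were smaller than 2-fold. With the fold limit set aside, a rule added after the values were seen, the signals of Hspa1a, Dnajb1 and Hsp90aa1 were higher in fetal cells, and those of Hspb1 and Bag3 in adult basal cells, at a Benjamini-Hochberg-adjusted p of at most 0.05 in limma. At that threshold 30.8% of all tested probes were higher in fetal cells and 30.4% in adult basal cells, so 3 and 2 of 9 were shares close to those of the array as a whole. The median difference (log2, fetal minus adult basal) over the 9 genes was 0.09, beside -0.03 over all tested probes. With 1 array left out the median was 0.04 (without adult basal replicate 1 or fetal replicate 2), 0.11 (fetal replicate 3), 0.14 (adult basal replicate 2), 0.17 (adult basal replicate 3) or 0.20 (fetal replicate 1). Of the 9 genes, 3 had all fetal arrays above all adult arrays and 2 the reverse, where 34.1% and 35.0% of tested probes did so. With 3 arrays in a group an exact permutation test of a single gene cannot give a p below 0.1, so the fit across all probes was used. The unadjusted 95% intervals of the differences were of 2 kinds. For Hspa8, Hsph1, Hspb1, Hspb8, Bag3 and Hsf1 the whole interval lay inside 2-fold in either direction, and for Hspa1a, Dnajb1 and Hsp90aa1 it reached past it.

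**Figure D1:**
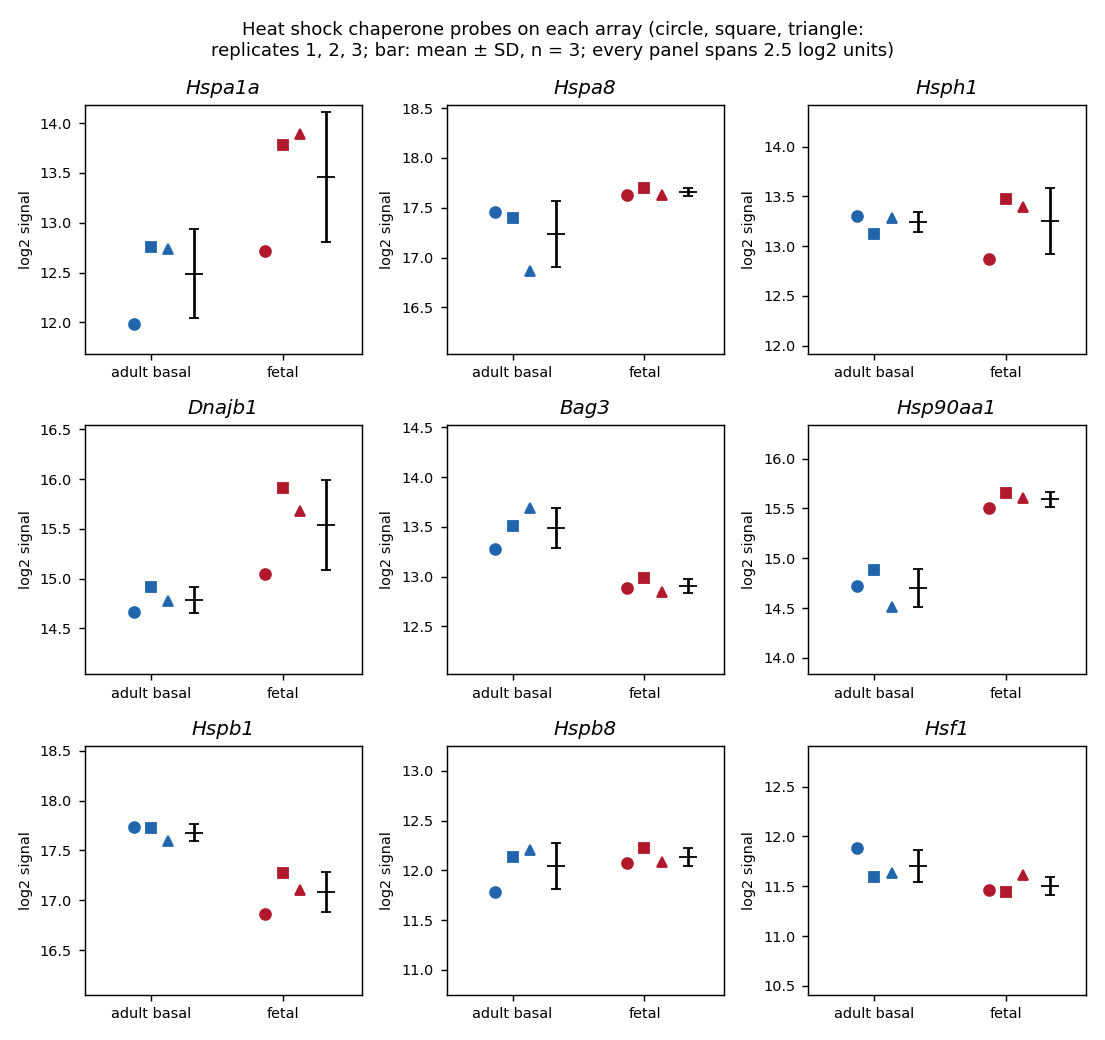
Log2 signal after quantile normalization (y axis, 2.5 log2 units in every panel) of the brightest probe of each of the 9 measured genes on the 3 adult basal (blue) and 3 fetal (red) arrays. Circles, squares and triangles are replicates 1, 2 and 3, and the bar is the mean ± SD. The groups stand clear of each other for Hsp90aa1, Hspb1 and Bag3, while for Hspa1a, Dnajb1 and Hsph1 the circle of the first fetal array lies well under the other fetal arrays.

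Hsf1, the regulator itself, had log2 signals of 11.46, 11.44 and 11.61 in fetal cells, replicates 1 to 3, and of 11.88, 11.59 and 11.63 in adult basal cells. The groups overlapped narrowly, with the highest fetal array just above the lowest adult array. The difference was -0.19 ± 0.12 (log2, SE; limma, Benjamini-Hochberg-adjusted p = 0.196), and its interval from -0.47 to 0.09 covered 0. With 1 array left out it lay between -0.25 and -0.10. Of its relatives, none of the 3 measured (Hsf2, Hsf4 and Hsbp1) was called. The signal of Hsbp1, whose product binds HSF1 and restrains it, was 0.89 higher in fetal cells on the log2 scale. Hsf4, a family member best known in the lens, differed by -0.89 at a dim signal, and Hsf2 by -0.01.

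Hspa1a encodes the stress-inducible HSP70 and had the widest spread of the members. Its log2 signals were 12.72, 13.78 and 13.89 in fetal and 11.98, 12.76 and 12.74 in adult basal cells. Each group held 1 low array, the first replicate in both, and the lowest fetal array lay just under the highest adult array. The difference in means, 13.46 ± 0.65 against 12.49 ± 0.45 (SD, n = 3), was 1.96-fold with an interval from 1.1-fold to 3.47-fold (limma, adjusted p = 0.045 by Benjamini-Hochberg). The arrays lay on 2 slides, and the log2 difference was 0.36 on the slide that held fetal replicate 1 with adult basal replicates 1 and 3, and 1.07 on the other. With slide as a block it was 0.72 and the adjusted p, 0.05 after rounding, was just past the threshold. The adjusted p of Hspa1a rose to between 0.13 and 0.14 without adult basal replicate 1, fetal replicate 2 or fetal replicate 3, and to 0.058 without adult basal replicate 3. The difference was 1.34 without fetal replicate 1. The Hspa1a and Hspa1b transcripts are near-identical, and what part of the signal came from either cannot be told apart.

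Hspa8 encodes the constitutive HSP70, which also strips clathrin from vesicles. Its brightest probe gave 17.63, 17.70 and 17.63 in fetal and 17.46, 17.40 and 16.87 in adult basal cells. The fetal arrays were nearly equal and all lay above the adult arrays, of which the third was low. The difference of this probe was 0.41 ± 0.17 (log2, SE; limma, adjusted p = 0.065) and fell to 0.23 without adult basal replicate 3. The other Hspa8 probes gave 0.48 (adjusted p = 0.011) and 0.83 (adjusted p = 0.00044). The 3 probes pointed the same way but differed in size, and the dimmest was the only one whose 95% interval, 0.57 to 1.09, reached 2-fold.

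Dnajb1 encodes the J-domain protein HSP40, which brings unfolded proteins to HSP70 and stimulates its ATPase. Signals were 15.05, 15.91 and 15.68 in fetal and 14.67, 14.92 and 14.78 in adult basal cells. The first fetal array came within 0.12 of the highest adult array, and the other fetal arrays were well above. The difference was 0.75 ± 0.22 (log2, SE), or 1.69-fold (limma, adjusted p = 0.019), with 0.32 on one slide and 0.87 on the other. Without the first fetal replicate it was 1.00 (limma, adjusted p = 0.0017). The adjusted p of Dnajb1 was between 0.06 and 0.065 without adult basal replicate 1, fetal replicate 2 or fetal replicate 3.

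Hsph1 encodes the HSP110 protein that exchanges nucleotide on HSP70 and helps it pull apart aggregates. On its brighter probe the fetal arrays read 12.87, 13.47 and 13.39 and the adult basal arrays 13.30, 13.12 and 13.28. The fetal values lay on both sides of the adult values. The difference was 0.01 (95% interval -0.40 to 0.42; limma, adjusted p = 0.967), and the slides gave opposite signs, -0.42 and 0.31. The second Hsph1 probe differed by 0.06 and also overlapped. Its slides gave -0.24 and 0.13.

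Hsp90aa1 encodes HSP90-alpha, the inducible form of the chaperone that matures kinases and steroid receptors. Signals were 15.50, 15.66 and 15.60 in fetal and 14.72, 14.88 and 14.51 in adult basal cells. Among the brightest probes of the 9 genes this was the widest separation, with 0.61 between the lowest fetal and the highest adult array. The difference was 0.88 ± 0.12 (log2, SE), or 1.85-fold (limma, adjusted p = 0.0006), and was 0.88 and 0.75 within the slides. Leaving out any array kept it between 0.79 and 0.97.

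The small heat shock proteins hold unfolding proteins in solution without ATP. Hspb1, encoding HSP25/27, which also caps actin filaments, read 16.86, 17.27 and 17.10 in fetal and 17.74, 17.73 and 17.59 in adult basal cells. Every adult array lay above every fetal array. The difference was -0.61 ± 0.13 (log2, SE; 1.52-fold higher in adult basal cells; limma, adjusted p = 0.0049), with -0.80 and -0.55 within the slides.

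Hspb8, a small heat shock protein that works in a complex with BAG3, read 12.07, 12.22 and 12.08 in fetal and 11.78, 12.13 and 12.20 in adult basal cells. The fetal arrays sat within the range of the adult arrays except for the highest, which was slightly above it. The difference was 0.09 (95% interval -0.23 to 0.41; limma, adjusted p = 0.594).

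Bag3, which links HSP70 to small heat shock proteins and sends damaged proteins to autophagy, read 12.89, 12.99 and 12.85 in fetal and 13.28, 13.51 and 13.69 in adult basal cells. All adult arrays were above all fetal arrays, although its partner Hspb8 overlapped. The difference was -0.58 ± 0.13 (log2, SE), 1.5-fold higher in adult basal cells (limma, adjusted p = 0.0056), and it was -0.59 on each slide.

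**Figure D2:**
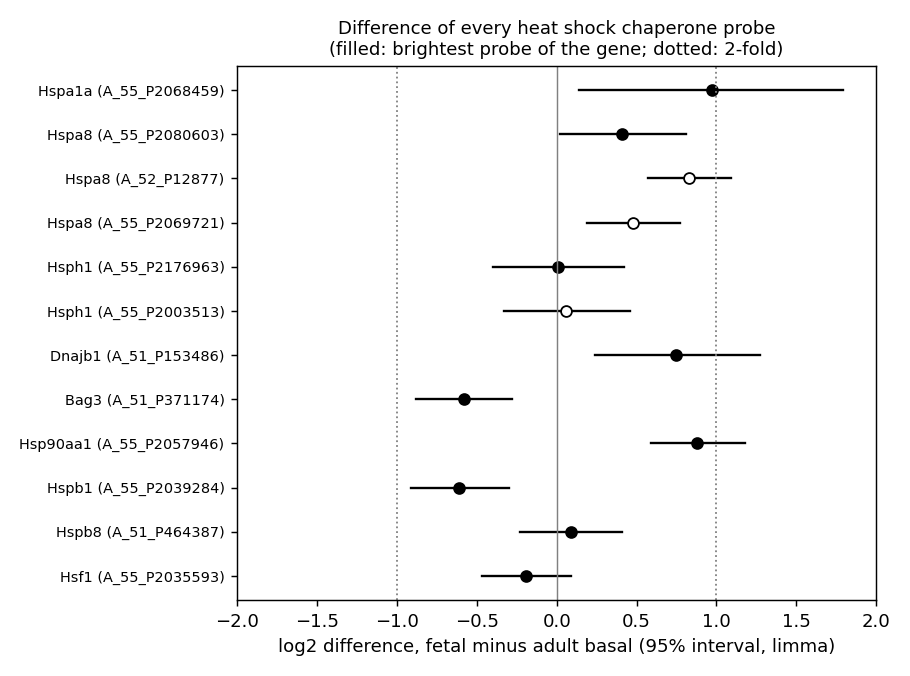
Difference between fetal and adult basal cells (x axis, log2, fetal minus adult basal) for all 12 probes (y axis), with unadjusted 95% intervals from limma. Filled points are the brightest probe of a gene and the dotted lines mark 2-fold. Hspa1a, the 3 probes of Hspa8, Dnajb1 and Hsp90aa1 lie to the right and Hspb1 and Bag3 to the left of 0, while Hsph1, Hspb8 and Hsf1 span it, and no point is past 2-fold.

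Members differed from each other in how far replicates of one population spread. The SD over the fetal arrays was 0.65 for Hspa1a, 0.45 for Dnajb1 and 0.33 for Hsph1, where the median over all tested probes was 0.12. These SDs were larger than those of 99.1%, 98% and 95% of tested probes. In all 3 genes the first fetal array was the low one, with departures from the fetal mean of -0.74, -0.50 and -0.37 on the log2 scale, and Hspb1 departed by -0.22 there.

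On that array none of the 9 genes was above its fetal mean on its brightest probe, whereas 44.6% of all tested probes were. The dimmest probe of Hspa8 was just above, at 14.39 beside a mean of 14.37. Hspa8, Hsp90aa1, Hspb8, Bag3 and Hsf1 lay within 0.09 of their fetal mean there. In the adult basal arrays Hspa1a departed by -0.51 from its mean on the first replicate, while Dnajb1 departed by -0.12 and Hsph1 by 0.07. The first fetal array was the only fetal array on its slide. The globin gene Hbb-bt, a marker of red blood cells, was also lowest there among fetal arrays, at 6.33 beside 9.28 and 9.29, and was not above background on any adult array. On the first fetal array every immediate early gene considered below was also under its fetal mean. Fos read 14.91 there beside a mean of 15.15 and Egr1 15.32 beside 15.54, while Klf6 was close, at 16.12 beside 16.16. What part the slide, red blood cells or the state of the early genes had in the spread of the chaperones was not tested.

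**Figure D3:**
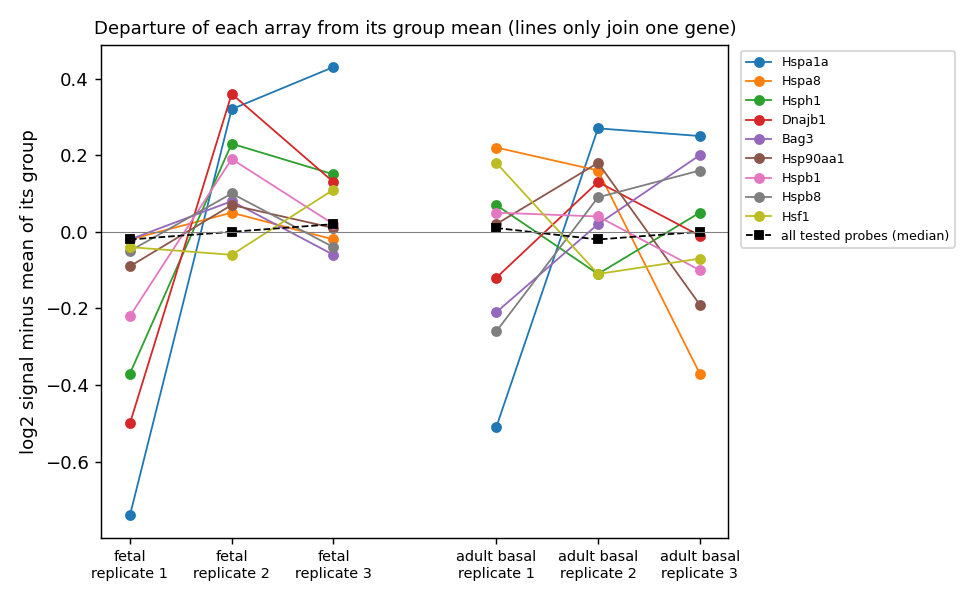
Departure of each array from the mean of its own group (y axis, log2) for the 9 measured genes, with the median of all tested probes as black squares. The x axis gives the 3 fetal and 3 adult basal replicates, and lines only join the values of one gene. On the first fetal array Hspa1a, Dnajb1 and Hsph1 departed by -0.74, -0.50 and -0.37, and the median of all tested probes by -0.02.

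Around these members, 53 other genes were tested, of cytosolic chaperones, co-chaperones, heat shock factors and the partners and filamin clients of BAG3. Of these 4 were called, all higher in adult basal cells, and 2 of the 4 were BAG3 partners rather than chaperones. Among these partners, Synpo2 passed the low-signal filter only through its adult basal signal. The median difference of the 53 genes was 0.12, with all fetal arrays above all adult arrays for 20 genes and the reverse for 17. These shares can be set beside those of all tested probes, 5.18% called higher in adult basal and 5.92% in fetal cells, and 34.1% and 35.0% without overlap. The lists were chosen by role, and each is described by its own counts.

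Among 6 tested relatives of HSP70, Hspa2, best known from the testis, was the only one called. It read 9.89, 10.04 and 9.77 in fetal and 12.31, 12.56 and 12.46 in adult basal cells, with no overlap. The difference was -2.54 on the log2 scale, larger in size than that of any member (limma, Holm-adjusted p = 0.0019). Hspa4l differed by -1.07 and Hspa4 by 0.32. None of 7 J-domain co-chaperones was called. Dnajb6, which keeps aggregation-prone proteins apart, differed by -1.59 (limma, Holm-adjusted p = 0.183), Dnajb2 by -0.72 and Dnaja1 by 0.67. Dnaja4 differed by -1.21, and its first fetal array was low at 9.92 beside 11.13 and 10.80. None of 8 other co-chaperones of HSP70 was called, with Bag2 at -1.57, Bag5 at -0.64, Hspbp1 at 0.58 and St13 at 0.44.

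In the HSP90 group, 12 genes were tested and 8 had all fetal arrays above all adult basal arrays, as Hsp90aa1 and 34.1% of all tested probes did. None of the 8 was called higher under the criteria of the study. Hsp90ab1, the constitutive HSP90-beta, read 17.41, 17.27 and 17.34 in fetal and 17.00, 16.82 and 16.86 in adult basal cells. The groups were apart, and the difference was 0.45 ± 0.10 (log2, SE; limma, Benjamini-Hochberg-adjusted p = 0.0067). The glucocorticoid receptor co-chaperone Fkbp5 differed by 1.04, Cacybp by 0.96 and the steroid receptor co-chaperone Fkbp4 by 0.65. The myosin chaperone Unc45a was the only one called, and was lower in fetal cells with a difference of -1.57 (limma, Holm-adjusted p = 0.018). All 8 subunits of the chaperonin TRiC, which folds actin and tubulin, had positive differences, from 0.10 to 0.56, the largest being that of Cct6a. Their median was 0.19, beside -0.03 over all tested probes. In 3 of the 8 all fetal arrays lay above all adult basal arrays, as in 34.1% of all tested probes. In the other 5 the groups overlapped, and none of the 8 was called.

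Of the cytosolic lists, the partners of BAG3 and HSPB8 had the median farthest from 0, at -2.98 over 4 genes. In chaperone-assisted autophagy BAG3 and HSPB8 clear damaged filamin with the help of the adaptor proteins encoded by Synpo2 and Sqstm1. All 4 genes of this list had every adult basal array above every fetal array, as did 35.0% of all tested probes, and 2 were called higher in adult basal cells, as were 5.18%. Both were lower in fetal cells, with a difference of -5.63 for Synpo2 (limma, Holm-adjusted p = 0.00098) and -3.01 for Sqstm1 (Holm-adjusted p = 0.0013). The Synpo2 value is that of its brightest probe, and its other probes gave -1.24 and -1.85 and were not called. The fetal mean of the called probe, 5.42, was under the low-signal limit of 5.95, so it was tested only through its adult basal signal. In fetal cells the probe that gave -1.24 was brighter, at 6.77. The filamin genes Flnc and Flna differed by -2.94 and -1.15 and were not called. None of 5 other small heat shock protein genes was called. Hspb3 differed by -1.64, Hspb6 by -0.82, Cryab by -0.58 and Hspb2 by 0.68.

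Chaperones of other compartments were measured on the same arrays. All 5 endoplasmic reticulum chaperone genes were called lower in fetal cells, where 5.18% of all tested probes were, with log2 differences from -3.63 for Hyou1 and -3.62 for Dnajb9 to -1.85 for Dnajb11, among them the reticulum's HSP70, Hspa5, at -2.17, and its HSP90, Hsp90b1, at -2.36. The corresponding cytosolic genes Hspa8 and Hsp90aa1 had differences of the opposite sign, 0.41 and 0.88. Of 6 mitochondrial chaperone genes, only the mitochondrial HSP70 gene Hspa9 was called, lower in fetal cells with a difference of -1.74 (limma, Holm-adjusted p = 0.027). Hspe1, of the mitochondrial chaperonin, differed by 1.48, the mitochondrial HSP90 gene Trap1 by 0.89 and Dnaja3 by -0.82. Immediate early genes, which respond within minutes to stress and growth signals, were called higher in fetal cells in 4 of 14 cases, Nr4a1 at 3.50, Klf6 at 3.11, Btg2 at 2.45 and Fosb at 2.36, where 5.92% of all tested probes were. Egr1 at 2.5 was not called, and Ier3 went the other way, with every adult basal array above every fetal array. In 11 of the 14 all fetal arrays lay above all adult basal arrays, as in 34.1% of all tested probes.

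**Figure D4:**
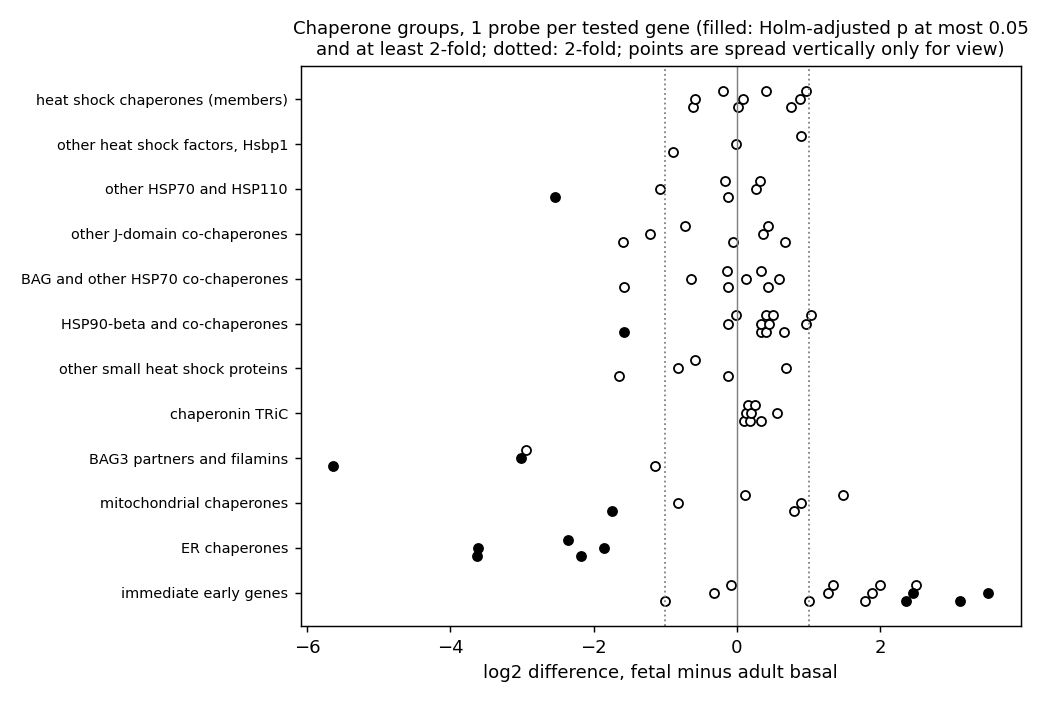
Difference between fetal and adult basal cells (x axis, log2, fetal minus adult basal) for 1 probe of each tested gene, in rows by role. Filled points were called (Holm-adjusted p of at most 0.05 and at least 2-fold) and the dotted lines mark 2-fold. The 9 heat shock chaperones lie between -0.61 and 0.97 with none called, whereas all 5 endoplasmic reticulum chaperones are called to the left and 4 of 14 immediate early genes to the right.

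The labelled populations were checked against marker genes. Of 7 basal and myoepithelial markers, Myh11, Cnn1, Acta2, Oxtr and Krt5 were called higher in adult basal cells, and Krt14 was not called. The brightest probe of Trp63 was not called at -0.08, whereas its second probe was called higher in adult basal cells at -3.06 (limma, Holm-adjusted p = 0.00019). Their summed signal, on the linear scale after normalization, was 818395, 756971 and 747663 on the adult basal arrays and 65437, 57609 and 52022 in fetal cells, with Acta2 the brightest. Of 7 luminal markers tested, Elf5 and Pgr were called higher in fetal cells, at 7.55 and 2.13. Krt19 went the other way at -1.22 without being called, with every adult basal array above every fetal array. Esr1 gave from -3.58 to -1.06 on 3 probes, the only tested one of which was the first, above background on 1 of 3 fetal arrays and not called. Of Prlr, the brightest probe differed by -0.35 and another was called higher in fetal cells at 1.85. The content of smooth muscle-type transcripts therefore moved with the same groups as Hspb1, Bag3, Synpo2 and Flnc, and its part in those differences was not tested. Arrays of sorted cells in bulk also cannot separate fewer cells of a type from less RNA per cell.

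Of 6 fibroblast markers, Dcn was called higher in adult basal cells. In 5 of the 6 every adult basal array lay above every fetal array, as in 35.0% of all tested probes, and for Col1a1 the groups overlapped. The summed fibroblast signal was 15534, 17881 and 25934 in adult basal cells beside 5437, 5705 and 7022 in fetal cells. Col1a2 was the brightest in fetal cells and Dcn in adult basal cells. Skeletal muscle is rich in HSPB3 and CRYAB. Of its 4 tested markers, Acta1 was called higher in adult basal cells and was the brightest, and the summed signal was 21080, 23397 and 21165 against 1159, 1245 and 1044. Nearly all of that adult signal was Acta1. Mb differed by -1.26 and was not called, and the groups overlapped for Tnnt3 at 0.03, Myog at -0.17 and the untested Ckm. The skeletal myosin genes Myh1 and Myh4 did not pass the low-signal filter and were not tested. Neither was above background on any adult basal array. Myh1 differed by 1.24 at a signal near background, and was above it on 2 of 3 fetal arrays. Of 4 tested markers of epidermal keratinocytes, Krt10 was called higher in fetal cells at 1.47. Krtdap at 4.11, Krt1 at 1.95 and Lor at 0.87 were not called. For all 4 every fetal array was above every adult basal array, as for 34.1% of all tested probes. None of the tested leukocyte, endothelial, adipocyte or erythroid markers was called, and the sort had removed cells carrying CD45, CD31 or Ter119. Both gates also required EpCAM, and the adult sort alone removed cells carrying BP-1, which the paper counts as stromal. Whether fibroblasts or muscle cells passed the gates was not tested. The groups overlapped for Ptprc, which encodes CD45, at -0.31, for Cd3e at -0.05, for Cd79a at -0.15, for Pecam1, which encodes CD31, at -0.14, for Kdr at -0.04 and for the globin gene Hba-a1 at 0.47. Others were far apart. Every adult basal array lay above every fetal array for the leukocyte genes Cd52 at -4.39 and Lyz2 at -1.76. The same held for the endothelial genes Cdh5 at -2.70 and Emcn at -1.79 (limma, Benjamini-Hochberg-adjusted p from 0.00084 to 0.025 over these leukocyte and endothelial genes). Hbb-bt was 28.2-fold higher in fetal cells (limma, 95% interval from 8.34-fold to 95.1-fold) and was above background on no adult basal array. Cd52 was above background on 2 of the 3 fetal arrays. The part of these cells in the chaperone values was not tested.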

How the data were processed

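RNA of 3 fetal and 3 adult basal samples was hybridized to 1 array each. The authors deposited spot intensities from Feature Extraction 11.0.1.1, background-corrected but not normalized between arrays, and log2 values that they had quantile normalized in GeneSpring. The labels and the methods name different labelling kits.

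Control and outlier spots (104 to 326 an array) were left out, log2 processed signals were averaged by probe and the arrays quantile normalized. Accessions were matched to a RefSeq table (GRCm38.p6), which named 27235 probes for 20660 genes. Probes in the lowest of 3 k-means clusters in both populations were removed, and limma 3.58.1 in R 4.3.3 was fitted to the remaining 20448. The fit was tested on simulated data. The share of probes well above background ran from 76.4% to 83.4%, and no spot was saturated. The number of arrays limits the precision.

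The brightest probe stands for a gene. All members were named, with Hsp90ab1, of the other chaperone and early gene lists the called genes and up to 4 with the largest differences, and of the marker lists the called genes and examples. Members and lists were chosen with earlier results of these data known. The alternatives were other normalizations, background corrections, offsets and filters, the authors' deposited log2 values, probe means, robust fits, each array left out, replicate or slide blocks and Benjamini-Hochberg adjustment, and, after the data were seen, no fold limit.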

Additional observations from a re-analysis of the deposited data

How the results depend on the processing

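None of the 9 measured heat shock chaperone genes was called under any of the 18 alternatives that kept the fold limit, and without it 5 were. The number of probes called over the whole array, 2270, depended more on the processing. It was 1182 with no low-signal filter, 1427 with a filter on probes well above background, 6133 with Benjamini-Hochberg adjustment and 12501 when that adjustment was used with no fold limit. Leaving out 1 array gave 948 (without fetal replicate 1) to 1949 (without adult basal replicate 2). With replicate number as a block 1302 were called and no member call changed. Samples sharing a number had deviations that correlated at -0.03, 0.09 and 0.05, and samples with unlike numbers at -0.13 to 0.12. No pairing by number was seen, but a correlation over all probes could miss one that touches few genes. The causes of these changes were not tested.

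Without a fold limit, Hspb1, Hsp90aa1 and Bag3 had a Benjamini-Hochberg-adjusted p of at most 0.05 in all 16 alternative probe-level fits of limma, Dnajb1 in 13, Hspa1a in 6 (adjusted p from 0.0014 to 0.14), Hspa8 in 4 (0.027 to 0.15) and Hsf1 in 1 (0.048 to 0.46). Between 3 and 7 of the 9 genes passed in a fit. The small difference of Hsph1 changed sign, to -0.0015 with normexp and -0.06 with slide as a block, and ranged from -0.10 to 0.20 with 1 array left out. Its second probe gave -0.05 with slide as a block and -0.07 to 0.24 with 1 array left out. Hspb8 ranged from -0.04 to 0.17 with 1 array left out.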

Other observations

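Several genes next to the heat shock chaperones had probes that gave unlike differences. Dnajb6 had 4 probes with log2 differences of -1.59, -1.52, -0.20 and -0.36 (fetal minus adult basal). The 3 probes of Hspa4, an HSP110 relative of Hsph1, gave 0.32, 1.1 and 0.35. Synpo2 gave -5.63, -1.24 and -1.85 on its 3 probes, of which the brightest alone was called. The 4 probes of the cyclophilin gene Ppid, an HSP90 co-chaperone, gave 0.41, 0.46, -0.25 and -0.18, so that its sign depended on the probe. Which transcripts each probe reads was not analysed here.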
